A study of Mus musculus with 90 samples.

Results

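Transcript levels of YUMM2.1 cells, a mouse melanoma cell line, after 24 h of fresh interferon gamma (IFNγ) were compared between cells that had been exposed to IFNγ for 3 weeks and naive cells that had never met it. The comparison took in the 3 replicates of each group, chosen by their labels alone, which are 6 of the 90 samples in the series. Both groups received 50 IU/mL IFNγ for the last 24 h, so they differed in the earlier exposure and also in 3 weeks of culture. Control cultures given BSA in place of IFNγ, collected at 0 and at 3 weeks in 3 replicates each, gave the background for culture time, and 3-week exposed cells collected without rechallenge (0 h) showed the state before fresh IFNγ. All groups are the same line, the labels name no separate passages or clones, and p values therefore measure the spread between these replicate samples, which may be technical.

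IFNγ binds a cell surface receptor that signals through JAK kinases. Transcription then starts at GAS elements and, through induced IRF factors, at ISRE elements, which together switch on immunoproteasome subunits, MHC genes and large GTPases that attack intracellular microbes. The pathway is held back by feedback inhibitors such as SOCS1. The study asked what continuous exposure to IFNγ changes, and the comparison here asked whether cells with that history reached the same transcript levels after fresh cytokine as naive cells.

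RNA was counted by 3′ digital gene expression, which samples transcripts near their 3′ end, and the 6 samples held between 857804 and 2341377 counts. After removal of low-count genes 9589 were tested over all 45 YUMM2.1 samples. Markers of the line and of other cell types were checked, with sums scaled by library totals. Of 13 melanocyte lineage genes 4 were tested (Sox10, Pax3, Mc1r and Gpnmb), whereas the pigment genes Tyrp1, Mlana and Slc45a2 were at 0 counts in all 6 samples. The 13 summed to 112 to 144 CPM in naive and 185 to 206 CPM in 3-week exposed cells. Gpnmb held a large part of that sum, with 60, 59 and 169 counts in naive and 158, 178 and 206 in exposed cells. It was the only tested member that passed, and it was also called higher in the control cultures. Of the 4 tested, 2 had a log2 fold change above 0 and 2 below. Of 13 markers of immune cells other than Cd68, 8 were at 0 in all 6 samples, and their summed level was 0 to 5.13 CPM (counts scaled to a common library size) in naive and 1.75 to 4.33 CPM in 3-week exposed cells. Cd68 itself was tested, passed as higher in exposed cells and is given below. Of 10 epithelial markers 8 were at 0, and their sum stayed at or under 1.17 CPM. Of 7 markers of vessels and fibroblasts, 1 (Pecam1) was tested and carried nearly all of their sum. That sum was 378 to 413 CPM in naive and 325 to 370 CPM in exposed cells. Cdh5, another endothelial gene, was at 0 in each of the 6 samples.

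In the presence of fresh IFNγ, 3-week exposed cells held less of many interferon-induced transcripts than naive cells and more of a few MHC transcripts. By edgeR's quasi-likelihood F test 78 genes differed at an adjusted p below 0.05 (Benjamini-Hochberg over all genes tested), 0.813% of those tested. Of these 22 were higher (0.229%) and 56 were lower (0.584%), and the median log2 fold change of all genes was 0.01. In all 78 genes the 3 samples of one group lay beyond the 3 of the other, which was so for 14% of all genes tested. Since RNA was taken from whole cultures, fewer cells expressing a gene and less RNA per cell cannot be told apart. With library totals as the only scaling 106 genes were called, 44 higher and 62 lower. The count rested on single libraries: it was 34 without replicate 2 of the naive cells, 40 without replicate 3 of the exposed cells and 47 without replicate 1 of the exposed cells.

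A reference set was taken to see how many of the 78 belong to the interferon response without using the same samples. It was the genes higher after 1 week of IFNγ plus 24 h of fresh IFNγ than in the 1-week control. That difference holds the week of exposure as well as the last 24 h. The set held 227 genes, 2.37% of those tested, and was added after the first results were known. Of these 227, 26 were lower in 3-week exposed than in naive cells (11.5%, beside 0.584% of all genes) and 4 were higher (1.76%, beside 0.229%). Their median log2 fold change was -0.14, with 147 below 0 and 80 above. The lower side of the comparison split into 26 interferon-raised genes and 30 others.

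**Figure D1:**
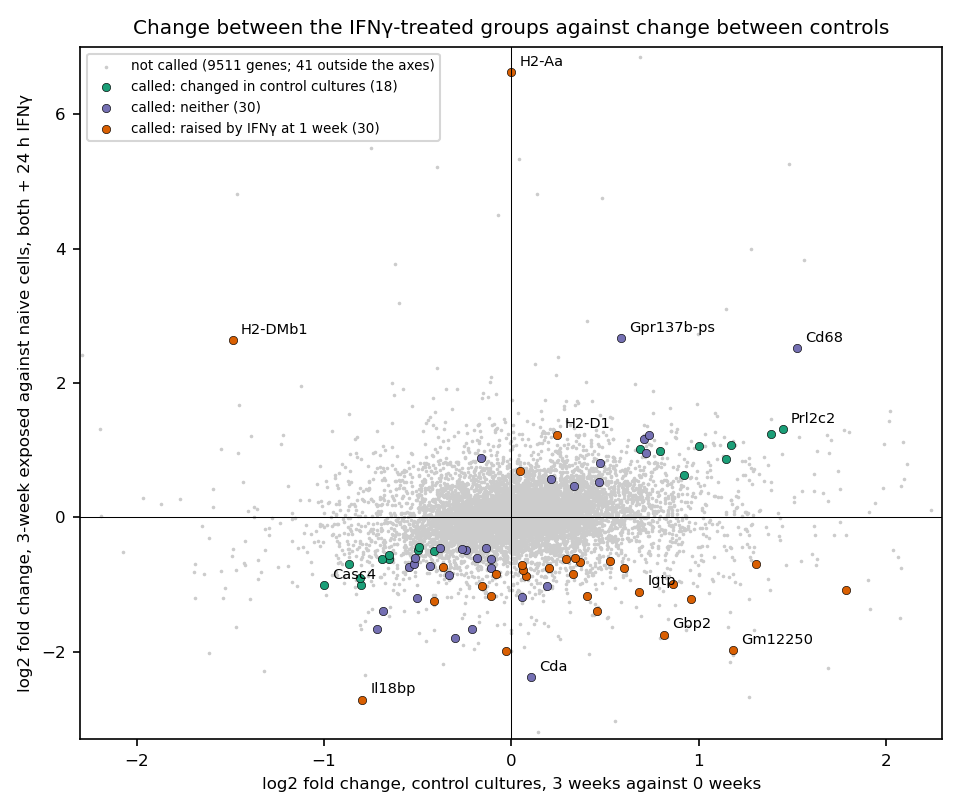
Log2 fold change between 3-week exposed and naive cells, both with 24 h of fresh IFNγ (vertical axis), against the log2 fold change between control cultures at 3 and 0 weeks (horizontal axis), for each gene tested. Coloured points are the 78 called genes by class and grey points the others, with those outside the axes counted in the legend. Of the 30 interferon-raised genes 26 lie below 0 on the vertical axis and 4 above, with control changes on both sides of 0. The class that changed in the control cultures holds only genes called in both comparisons in the same direction. That choice fixed the signs of its points, which lie near the diagonal.

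The promoters of 4 genes the comparison turned on are given here and were searched for GAS and ISRE matches. Each is written 5′ to 3′ on the gene's strand (mouse build GRCm38.p6) and holds the 250 bases that end just before the RefSeq transcription start, except for Gbp2, where the match is given with 10 bases on either side. Capitals mark a match to TTCNNNGAA (GAS) or to GAAA, any 2 bases, GAAA (ISRE) on either strand, and the 2 motifs could overlap. Gbp2 (chr3:142620594-142620623, + strand), Igtp (chr11:58199306-58199555, + strand) and Irf1 (chr11:53769764-53770013, + strand) are genes that were lower in 3-week exposed cells, and H2-Aa (chr17:34287824-34288073, - strand) was higher.
Gbp2: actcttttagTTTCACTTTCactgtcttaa
Igtp: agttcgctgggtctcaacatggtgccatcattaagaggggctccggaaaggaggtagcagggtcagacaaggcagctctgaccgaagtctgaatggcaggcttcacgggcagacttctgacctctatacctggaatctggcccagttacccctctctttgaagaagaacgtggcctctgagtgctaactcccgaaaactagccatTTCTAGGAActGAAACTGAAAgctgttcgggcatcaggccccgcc
Irf1: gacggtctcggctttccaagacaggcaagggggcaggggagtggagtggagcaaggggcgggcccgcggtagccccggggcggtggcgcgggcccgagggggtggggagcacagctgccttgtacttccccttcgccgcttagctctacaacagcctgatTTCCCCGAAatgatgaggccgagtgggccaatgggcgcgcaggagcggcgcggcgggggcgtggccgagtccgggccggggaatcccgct
H2-Aa: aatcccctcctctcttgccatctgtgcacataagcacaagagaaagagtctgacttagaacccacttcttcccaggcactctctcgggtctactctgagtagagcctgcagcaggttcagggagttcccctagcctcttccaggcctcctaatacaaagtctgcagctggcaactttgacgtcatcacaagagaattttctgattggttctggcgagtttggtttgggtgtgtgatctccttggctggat
In Igtp a GAS match lay 45 to 37 bases before the start and an ISRE match 34 to 25 bases before it. In Irf1 only a GAS match was found, 90 to 82 bases upstream, and in Gbp2 only an ISRE match, 59 to 50 bases upstream of the RefSeq start. GENCODE, another gene annotation, starts Gbp2 at chr3:142620602, so the match lies just inside that longer gene model. No letters of either motif stood in the 250 bases of H2-Aa.

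A RefSeq promoter was found for 19 of the 26 lower interferon-raised genes, and 9 of these (47.4%) held at least 1 of the motifs. An ISRE match stood in 8 of them (42.1%), a GAS match in 5 (26.3%) and both in 4. Over all 32851 promoters of this length the shares were 2.98% for ISRE, 7.02% for GAS and 9.66% for either. Of 146 promoters of interferon-raised genes that were not called between exposed and naive cells, 38 (26%) held either motif, as did 1 of 23 among the other lower genes and 0 of 4 among the higher interferon-raised genes. These matches describe letters in a window and were not tested. Only exact matches were counted, so elements that differ by a base or lie outside the window were missed.

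Guanylate-binding proteins, GTPases that coat vacuoles and bacteria, had several lower members. Of 9 tested, 5 were lower and 0 higher, with a median log2 fold change of -1.09 beside 0.01 for all genes. Gbp2 stood at 333, 368 and 387 CPM in the naive replicates and at 113, 109 and 104 CPM in the exposed replicates. Every exposed sample lay below every naive sample, and the exposed level was 3.36-fold lower (log2 fold change -1.75, SE 0.13, edgeR adjusted p = 5.74e-13). Gbp4 stood at 265, 245 and 154 CPM in naive and 71.3, 96.7 and 79.4 CPM in exposed cells (log2 fold change -1.39, SE 0.21, edgeR adjusted p = 4.39e-05). Gbp3, Gbp6 and Gbp7 were lower by log2 fold changes of -1.21, -1.09 and -0.67, and Gbp6 shares sequence with close family members between which reads may be split. Untreated cells expressed little of the family: Gbp2 was at 5.65 ± 1.76 CPM in 0-week and 9.31 ± 0.434 CPM in 3-week control cultures (SD, n = 3 each). Exposed cells with fresh IFNγ stood above their own control by a log2 fold change of 3.53 (SE 0.17, edgeR adjusted p = 2.48e-20) for Gbp2.

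Immunity-related GTPases, which disrupt parasite vacuoles, also had lower members. Of 10 tested, 5 were lower and 0 higher, with a median log2 fold change of -0.68. Igtp was at 264, 293 and 277 CPM in naive and 120, 126 and 141 CPM in exposed cells (log2 fold change -1.10, SE 0.17, edgeR adjusted p = 4.39e-05). Gm12250 was at 31.5, 33.8 and 39 CPM in naive and 10.6, 4.99 and 11.5 CPM in exposed cells (log2 fold change -1.97, SE 0.31, edgeR adjusted p = 5.42e-05). Irgm1, Ifi47 and Iigp1 were lower by -0.84, -0.71 and -0.69. Tgtp1, which shares reads with its near-identical neighbour Tgtp2, was at 452, 516 and 344 CPM in naive and 373, 508 and 479 CPM in exposed cells, with overlapping groups and a log2 fold change of 0.07 (SE 0.56) that did not pass. Whether it differed from the other members was not tested.

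**Figure D2:**
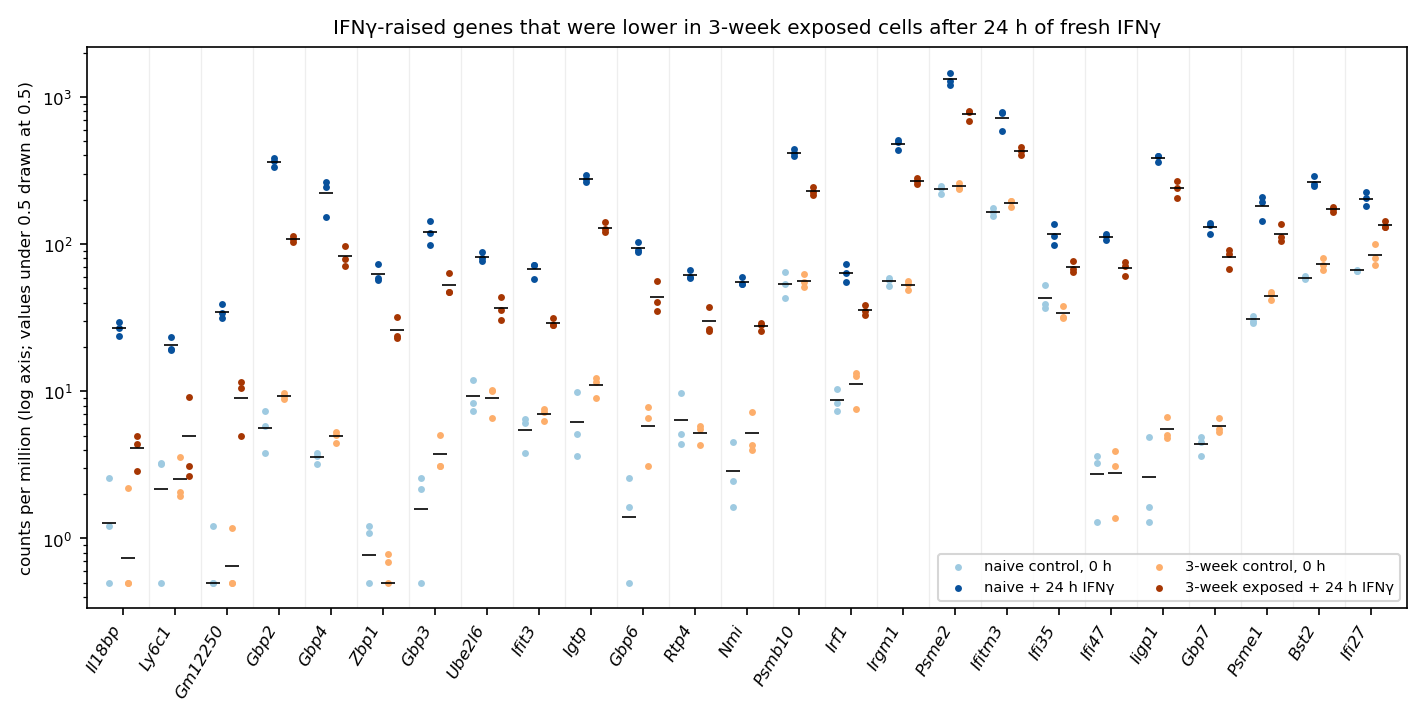
CPM on a log axis for 25 of the 26 genes that were lower in 3-week exposed than in naive cells after 24 h of fresh IFNγ and that were raised by IFNγ at 1 week. Each point is 1 replicate (n = 3 per group) and each dash the group mean, and values under 0.5 are drawn at 0.5. Both IFNγ-treated groups stand above their controls in each gene shown by their means, and the exposed replicates stand below the naive ones.

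Of 5 immunoproteasome genes tested 3 were lower and 0 higher, with a median log2 fold change of -0.65. The activator subunits Psme1 and Psme2, which form the PA28 cap, and the catalytic subunit Psmb10 were lower, whereas the catalytic subunits Psmb8 and Psmb9 did not pass. Psme2 was at 1201, 1465 and 1286 CPM in naive and 792, 802 and 691 CPM in exposed cells, a log2 fold change of -0.79 (SE 0.11, edgeR adjusted p = 2.54e-05). Psmb10 was at 415, 441 and 397 CPM in naive and 225, 245 and 215 CPM in exposed cells (log2 fold change -0.87, SE 0.13, edgeR adjusted p = 4.18e-05), and Psme1 was lower by -0.65. In these 3 genes no exposed sample reached a naive one. Psmb9 stood at 70.8, 91.2 and 85.3 CPM in naive and 88.1, 81.1 and 73.6 CPM in exposed cells, and its log2 fold change was -0.04 (SE 0.18). Psmb8 stood at 18, 26.6 and 29.3 CPM in naive and 30.8, 41.2 and 27.6 CPM in exposed cells (log2 fold change 0.39, SE 0.28, edgeR adjusted p = 0.756). The groups overlapped in both genes, and no test compared them with the subunits that passed. Psmb8, Psmb9, Tgtp1 and the other list members given as not passing were singled out after their values were seen.

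Irf1, a transcription factor that activates further interferon genes, was the 1 of 5 tested IRF factors that passed. It fell from 55.1, 73.8 and 63.2 CPM to 35.2, 38.7 and 32.8 CPM (log2 fold change -0.85, SE 0.18, edgeR adjusted p = 0.00761). None of 9 feedback inhibitors tested passed in either direction. Socs1, the inhibitor that binds the JAKs, was at 11.2, 11.3 and 8.91 CPM in naive and 6.16, 6.24 and 8.05 CPM in exposed cells, and its log2 fold change of -0.56 (SE 0.43) did not pass.

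Among antiviral interferon-stimulated genes, 9 of 32 tested were lower and 0 higher, with a median log2 fold change of -0.56. Zbp1, a sensor of Z-form nucleic acids, was at 58.4, 73.8 and 56.8 CPM in naive and 22.9, 31.8 and 23.6 CPM in exposed cells (log2 fold change -1.25, SE 0.21, edgeR adjusted p = 0.000164). Ifit3, Rtp4, Nmi, Ifitm3, Ifi35, Bst2 and Ifi27 were lower by -1.17, -1.02, -0.99, -0.75, -0.73, -0.62 and -0.60, and Ube2l6, the conjugating enzyme for ISG15, by -1.17. Il18bp, a secreted decoy that binds interleukin 18, had the largest drop on this side, from 23.6, 29.7 and 27.1 CPM to 4.4, 4.99 and 2.88 CPM (log2 fold change -2.71, SE 0.43, edgeR adjusted p = 7.53e-05). Ly6c1, a surface antigen, was at 19.1, 19.5 and 23.3 CPM in naive and 2.64, 3.12 and 9.2 CPM in exposed cells (log2 fold change -1.99, SE 0.46, edgeR adjusted p = 0.0183). Its call was lost without replicate 1 (adjusted p = 0.171) or 2 (0.163) of the exposed cells and without replicate 2 (0.0696) or 3 (0.0893) of the naive cells.

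Each history was also set against its own control culture. Naive cells with IFNγ differed from the 0-week control in 85 genes (0.886% of those tested), and exposed cells with fresh IFNγ differed from the 3-week control in 74 (0.772%). Over the 26 lower interferon-raised genes the median log2 fold change was 3.94 in naive and 2.43 in exposed cells. For Gbp2 the values were 6.09 and 3.53. These comparisons share samples with the one between exposed and naive cells, so their values are given side by side only.

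Parp14 and Cd274, which the study followed by name, did not pass. Parp14, an ADP-ribosyltransferase, was at 10.1, 17.4 and 5.09 CPM in naive and 2.64, 8.11 and 6.33 CPM in exposed cells. The groups overlapped, and the log2 fold change of -0.74 (SE 0.45, edgeR adjusted p = 0.676) did not pass. Cd274, which encodes PD-L1, was at 6.74, 1.02 and 3.82 CPM in naive and 3.52, 1.25 and 1.15 CPM in exposed cells, with a log2 fold change of -1.03 (SE 0.65, edgeR adjusted p = 0.688). The groups overlapped here too. Of the list of 14 IFNγ genes that includes them, 2 were lower (Irf1 and Ube2l6) and 0 higher, with 11 of 14 below 0 and a median of -0.45. None of 7 interferon-induced PARPs and none of the 16 genes of the study's chronic IFNγ signature passed, with medians of -0.51 and -0.004, and the study chose that signature on samples of this series.

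On the higher side stood MHC genes. Of 15 class I and peptide-loading genes tested 1 was higher and 0 lower, with a median log2 fold change of 0.00. H2-D1, a classical class I heavy chain, was at 95.5, 85.1 and 115 CPM in naive and 231, 221 and 253 CPM in exposed cells. The exposed level was 2.35-fold higher (log2 fold change 1.23, SE 0.17, edgeR adjusted p = 8.8e-06), and no replicates overlapped. H2-K1, the other classical heavy chain and close enough in sequence that reads may be split between them, was at 1.12, 1.02 and 2.12 CPM in naive and 2.64, 5.61 and 9.78 CPM in exposed cells, without passing (log2 fold change 1.91, SE 0.83, edgeR adjusted p = 0.424). B2m, the invariant light chain, was at 1402, 1930 and 2206 CPM in naive and 2606, 2760 and 2461 CPM in exposed cells, also without passing (log2 fold change 0.50, SE 0.16, edgeR adjusted p = 0.189). Tap1, a subunit of the peptide transporter, was at 8.99, 8.2 and 19.1 CPM in naive and 9.69, 15.6 and 25.9 CPM in exposed cells, with overlapping groups.

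Several class II transcripts were counted in exposed cells and were near or at 0 in naive cells, with H2-DMa as an exception. H2-Aa, the alpha chain of a class II molecule, had 0, 0 and 0 counts in the naive replicates, 0 in all 6 control samples, and 9, 7 and 20 counts in the exposed replicates. Against a floor of 3 counts over the naive group the exposed level was at least 11.3-fold higher, and the edgeR adjusted p was 0.00219. The filter on low counts covered all YUMM2.1 samples, and neither the naive cells nor these controls could bring H2-Aa past it. That route into the test favoured a higher level in exposed cells, so the counts describe the difference better than the p. Of 12 alternatives 10 gave H2-Aa a p, and it passed in those 10. H2-DMb1, which helps load class II molecules, had 4, 2 and 4 counts in naive and 21, 21 and 27 counts in exposed cells (log2 fold change 2.64, SE 0.52, edgeR adjusted p = 0.00247), and its call was lost without replicate 3 of the naive cells (adjusted p = 0.0675). H2-Eb1 had 1, 0 and 0 counts in naive and 2, 11 and 7 in exposed cells and did not pass (edgeR adjusted p = 0.171). H2-DMa had 0, 2 and 9 counts in naive and 5, 7 and 8 in exposed cells, so 1 naive sample lay above all exposed ones, and it did not pass (log2 fold change 0.87, SE 0.76). H2-Ab1, with 0, 0 and 0 counts against 4, 4 and 4, was too low to be tested, as was the invariant chain Cd74, with 0, 0 and 0 against 1, 2 and 5. Ciita, the class II transactivator, had 0, 0 and 2 counts in the exposed replicates. Of the immune cell markers Cd68 was the 1 tested, and it was higher in exposed cells (25, 14 and 25 counts against 3, 0 and 8). The other 13 were at the levels given above, with 8 of 13 at 0 in all 6 samples. Whether other cells added to the class II counts was not tested.

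**Figure D3:**
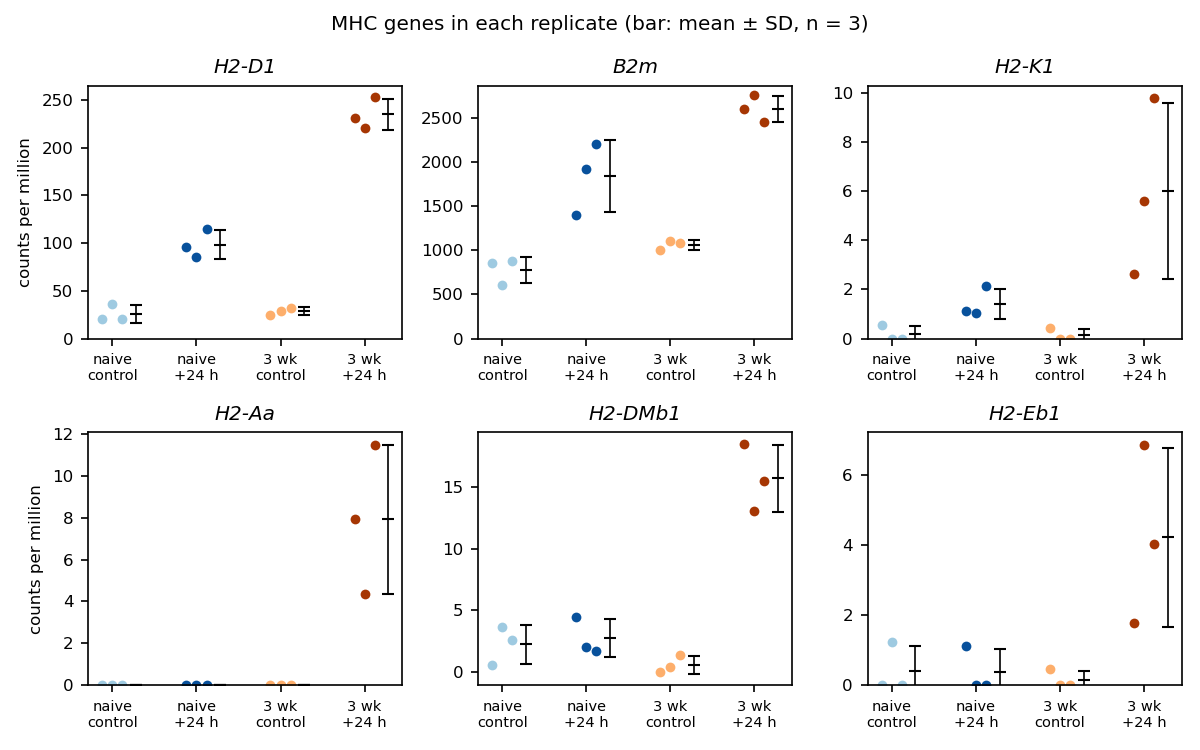
CPM of 3 class I genes (top) and 3 class II genes (bottom) in each replicate of the 0-week control, naive cells with 24 h of IFNγ, the 3-week control and 3-week exposed cells with 24 h of fresh IFNγ, with the mean ± SD (n = 3). H2-D1 lies at 221 to 253 in exposed and 85.1 to 115 in naive cells, and H2-Aa is counted only in exposed cells among these 4 groups.

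Exposed cells were also compared with and without the fresh dose. Between 3-week exposed cells with and without rechallenge, a comparison added after the first results, edgeR called 0 of 9589 genes, with 351 at an unadjusted p below 0.05, and DESeq2 called 1 (Sept2, named after its value was seen). Gbp2 was at 129, 118 and 112 CPM without rechallenge, beside the 113, 109 and 104 CPM with it (log2 fold change -0.17, SE 0.15). H2-D1 was at 235, 208 and 217 CPM (log2 fold change 0.09, SE 0.16). Without rechallenge H2-Aa had 9, 3 and 0 counts and H2-DMb1 had 24, 16 and 4. Over the 26 lower interferon-raised genes the median log2 fold change on rechallenge was -0.03, from -0.60 to 0.60. These genes were chosen as low in the same rechallenged samples, which favoured a low median here. A count of 0 does not show that the levels were equal. The labels do not say whether cells without rechallenge still had IFNγ in their medium when collected. Leaving out replicate 3 without rechallenge, whose 274719 counts are under 25% of the line's median, also gave 0 calls.

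The same 24 h treatment was given after 1 and 2 weeks of exposure, in samples that the comparison did not use. Gbp2 after 24 h of fresh IFNγ was at 363 ± 27.7 CPM in naive cells, 891 ± 70.7 at 1 week, 746 ± 85.3 at 2 weeks and 108 ± 4.62 at 3 weeks (SD, n = 3 each). By group means all 26 genes stood higher at 1 week than in naive cells, 25 of 26 at 2 weeks, and in all 26 the 3-week level was the lowest of the 4. The choice of these genes fixed that the 3-week level was below the naive one and favoured high levels at 1 week, so the order is a description. H2-D1 was at 98.5 ± 15.2, 285 ± 50.4, 259 ± 42.1 and 235 ± 16.5 CPM in the same order. Class II transcripts were also counted at the earlier weeks. H2-Aa had 9, 13 and 22 counts at 1 week and 2, 12 and 14 at 2 weeks. H2-DMb1 had 29, 43 and 45 counts at 1 week and 34, 27 and 76 at 2 weeks.

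Culture for 3 weeks without IFNγ went with 50 called genes between the control cultures, 24 higher and 26 lower (0.521% of those tested, 0.25% and 0.271%), and no sample is shared between that comparison and the one above. Over all genes tested the median log2 fold change between the control cultures was 0.03. Of the 30 lower genes that were not interferon-raised, 10 were also called lower in the control cultures and 27 were below 0 there. Of the 26 interferon-raised ones 0 were called lower in the control cultures and 7 were below 0. Of the 22 higher genes 8 were also called higher in the control cultures and 19 were above 0, and 4 were interferon-raised (H2-Aa, H2-DMb1, H2-D1 and Pold4, a subunit of DNA polymerase delta).

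Genes called in both comparisons in the same direction had similar values in each, which choosing them by both calls favoured. Prl2c2, a prolactin-family hormone known as proliferin, was at 689, 837 and 1040 CPM in naive and 2268, 2216 and 1928 CPM in exposed cells (log2 fold change 1.31, SE 0.15, edgeR adjusted p = 8.22e-08). It rose by 1.45 in the control cultures too. Its near-identical relative Prl2c3, between which and Prl2c2 reads may be split, changed by 1.25 and by 1.39 in the controls. Ybx1, a cold-shock domain RNA-binding protein, was at 113, 120 and 155 CPM in naive and 245, 286 and 296 CPM in exposed cells and changed by 1.07, beside 1.17 in the controls. Gpnmb, a glycoprotein of pigment cells, Ccl7, a monocyte chemokine, and Lgals7 changed by 0.87, 0.99 and 1.06, beside 1.15, 0.80 and 1.00 in the controls. Tmem179 changed by 1.02, beside 0.69 in the controls. On the lower side Casc4, named after its values were seen, was at 469, 491 and 390 CPM in naive and 225, 239 and 205 CPM in exposed cells, 2.01-fold lower (edgeR adjusted p = 0.000502), and was also called lower in the controls. Fn1, which encodes fibronectin, changed by -0.70, and by -0.87 in the controls. Fn1 was the 1 of 25 extracellular matrix genes tested that passed.

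Other genes passed between exposed and naive cells and were called neither in the reference set nor in the control cultures. Il33, an alarmin cytokine, was at 13.5, 16.4 and 17.8 CPM in naive and 41.4, 39.3 and 30.5 CPM in exposed cells (log2 fold change 1.17, SE 0.24, edgeR adjusted p = 0.00417), beside 0.71 in the controls. Cd68, a lysosomal glycoprotein abundant in macrophages, had 3, 0 and 8 counts in naive and 25, 14 and 25 counts in exposed cells (log2 fold change 2.52, SE 0.59, edgeR adjusted p = 0.0174), beside 1.53 in the controls. Gpr137b-ps, a pseudogene whose reads may belong to its parent, and Hist1h2bc, one of many alike histone genes, were higher by 2.66 and 1.23. Cda, which deaminates cytidine, had the second largest drop, from 10.1, 13.3 and 6.36 CPM to 0.881, 1.25 and 2.88 CPM (log2 fold change -2.38, SE 0.56, edgeR adjusted p = 0.0207). Hcfc1r1, Slc7a14 and Tfr2 were lower by -1.79, -1.66 and -1.39.

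Some lower transcripts were uneven among the naive replicates. The mitochondrial 16S ribosomal RNA mt-Rnr2, named after its values were seen, was at 8695, 12241 and 5125 CPM in naive and 3424, 4363 and 3697 CPM in exposed cells (log2 fold change -1.18, SE 0.30, edgeR adjusted p = 0.0334), passed in only 1 of the 6 fits that left out 1 replicate, and took 0.902%, 1.17% and 0.516% of all counts in the naive samples against 0.341%, 0.43% and 0.398% in the exposed ones. Hist1h1b, a replication-dependent histone whose transcripts lack long poly(A) tails, was at 105, 229 and 104 CPM in naive and 44.9, 43.7 and 46.6 CPM in exposed cells (log2 fold change -1.67, SE 0.43, edgeR adjusted p = 0.0456). Of 13 mitochondrial protein-coding genes and of 39 nuclear respiratory chain genes tested, none passed in either direction. The part of these transcripts in the other differences was not tested.

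Several of the calls above rested on single libraries, as the edgeR adjusted p without 1 of them shows. Without replicate 2 of the naive cells it was 0.139 for Irf1, 0.2 for Gbp7, 0.212 for Gbp6, 0.0839 for Iigp1, 0.0948 for Ifi47, 0.188 for Psme1, 0.23 for Ifi35, 0.247 for Nmi, 0.0974 for Ifi27, 0.2 for Cd68, 0.23 for Gpr137b-ps, 0.224 for Hist1h2bc, 0.0605 for Lgals7, 0.226 for Cda, 0.0839 for Hcfc1r1, 0.561 for Hist1h1b and 0.23 for Tfr2. Without replicate 1 of the naive cells Gbp6, Gbp7, Ifi47, Nmi, Cda, Tfr2, Gpr137b-ps and Hist1h2bc lay between 0.061 and 0.105, and without replicate 3 Ifi47, Psme1, Nmi and Ifi27 lay between 0.0793 and 0.157. Without replicate 1 of the exposed cells Irf1, Gbp6, Gbp7, Ifi47, Nmi, Ifi27, Cda, Cd68, Gpr137b-ps, Hist1h1b, Slc7a14 and Tfr2 lay between 0.0533 and 0.203. Without replicate 2 Ifi47, Psme1, Ifi35, Nmi, Cda, Gpr137b-ps, Hist1h1b, Hist1h2bc and Lgals7 lay between 0.0667 and 0.188, and without replicate 3 Irf1, Ube2l6, Gbp6, Gbp7, Iigp1, Ifi47, Psme1, Ifi35, Nmi, Ifi27, Cd68, Hist1h1b and Tfr2 lay between 0.0527 and 0.217. Gbp2, Gbp3, Gbp4, Igtp, Irgm1, Gm12250, Zbp1, Ifit3, Rtp4, Psme2, Psmb10, Ifitm3, Bst2, H2-D1, Prl2c2, Ybx1, Il33, Gpnmb, Ccl7, Casc4 and Fn1 passed in each of the 12 alternatives.

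The change between the control cultures was then subtracted, which sets IFNγ-treated cells of each history against their own control. For exposed cells that difference holds the 3 weeks of IFNγ as well as the last 24 h. Adjusted in this way 9 genes passed, 0.0939% of those tested, each with a smaller rise over control in 3-week exposed cells. None of the genes with a positive difference passed with edgeR, 141 did at an unadjusted p below 0.05, and DESeq2 called 2 higher and 11 lower. Among them were Gbp2 (-2.56, SE 0.32, edgeR adjusted p = 2.97e-06), Psme2 (-0.86), Igtp (-1.79), Psme1 (-1.18), Psmb10 (-0.95), Ifitm3 (-0.95), Ifi27 (-0.94) and Bst2 (-0.92). Over the 26 lower interferon-raised genes the adjusted difference had a median of -1.18 beside -0.03 over all genes. These genes were chosen as lower in the comparison that the adjusted difference starts from, so that choice favoured a negative median. Pold4 and H2-D1 had adjusted differences of 0.64 (SE 0.17) and 0.99 (SE 0.28) that did not pass. The 4 class II genes tested, H2-Aa and H2-DMb1 among them, had a median adjusted difference of 4.25 at low counts, and none passed. Gbp2 passed in each of the 18 alternatives run, and the other 8 did not. Leaving out 1 library of the 4 groups gave 7 genes without replicate 1 of the naive cells with IFNγ or replicate 2 of the 3-week control, and 1 to 3 genes without any other.

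**Figure D4:**
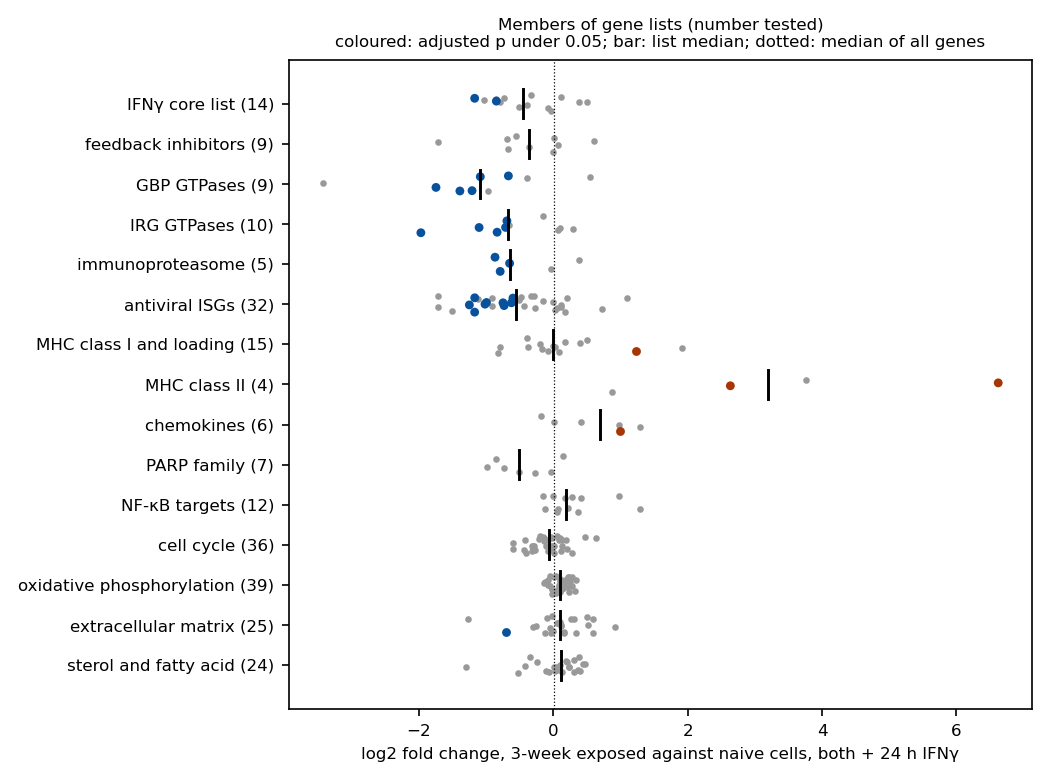
Log2 fold change between 3-week exposed and naive cells, both with 24 h of fresh IFNγ, for the tested members of 15 gene lists (number tested in brackets). Blue and brown points passed as lower and higher at an adjusted p below 0.05, grey points did not, bars are list medians and the dotted line is the median of all genes. The GBP, IRG, immunoproteasome and antiviral lists lie to the left of 0 with called members, MHC class II lies to the right, and the cell cycle, oxidative phosphorylation, matrix and sterol lists lie around 0.

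Outside interferon genes the lists followed here showed little. None of 36 cell cycle, 24 sterol and fatty acid, 20 glycolysis and hypoxia, 22 ER stress, 12 NF-κB, 18 immediate-early, 13 MAPK feedback, 20 TGFβ or 15 caspase and death genes tested passed in either direction, with list medians between -0.08 and 0.19. Of 6 chemokines tested 1 was higher (Ccl7). A miss of the threshold does not show that such genes were equal, and 901 of all genes had an unadjusted p below 0.05.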

How the data were processed

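Values are the whole-number counts that the authors deposited in 1 gene table, neither normalized nor pooled. The paper describes 3′ digital gene expression libraries with tximport, and the submitters' processing notes name Salmon 0.13.1 and mm10. Annotation and use of molecular identifiers are not given in the sources used here. Columns were matched to groups by their labels, with 0 left unused, and 53668 of 53697 identifiers matched a symbol.

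Here R 4.3.3 and edgeR 4.0.16 were used: filterByExpr by group, TMM scaling, a quasi-likelihood fit over 45 YUMM2.1 samples in 15 groups without covariates, and Benjamini-Hochberg adjustment with a threshold of 0.05. CPM are TMM-scaled except in marker sums, and floors cover counting error only. The paper left out 1 YUMM2.1 sample as an outlier without naming it, and all 45 were used here. DESeq2 1.42.0 was an alternative. The contrasts were tested on simulated data. Promoters came from RefSeq (GRCm38.p6).

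Members and lists were chosen with earlier results of these data known. Text names the 12 largest changes in each direction, called list members, Parp14, Cd274, Irf1, B2m and the smallest p values after adjustment for culture time, and other genes only where said. A called gene and its list are not reported here. The alternatives were other scaling, filter, samples, replicate block and each replicate left out.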

Additional observations from a re-analysis of the deposited data

Results flagged for a closer look

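In 8 genes the difference between IFNγ-treated cells and their own control culture was not the same in 3-week exposed and naive cells by the test of that difference, which for exposed cells holds 3 weeks of IFNγ as well as the last 24 h. The differences in log2 fold change were -2.56 for Gbp2, -1.79 for Igtp, -1.18 for Psme1, -0.95 for Psmb10, -0.95 for Ifitm3, -0.94 for Ifi27, -0.92 for Bst2 and -0.86 for Psme2, each at an edgeR adjusted p of at most 0.031. The rise over control was the smaller one in 3-week exposed cells in all 8. Of the 12 fits that left out 1 library, Gbp2 passed in 12, Igtp and Psme2 in 3, Psme1 and Ifi27 in 2, and Ifitm3, Bst2 and Psmb10 in 1. With 3 replicates a group no single sample was tested as an outlier.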

How the results depend on the processing

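Of the 78 genes called between exposed and naive cells 29 passed in every alternative that gave them a p, among them Gbp2, Igtp, Psmb10 and H2-D1. DESeq2 gave a p to 69 of the 78 and called all 69. A fit on the compared groups alone called 69 genes, with 54 of the 78 among them, and gave no p to 3 of the 78. Of the 6 alternatives other than the fits that left out 1 replicate, Irf1, Gbp7, Psme1 and Hist1h1b passed in 5. Cda passed in 4 of these 6, and Tfr2 and Gpr137b-ps in 3, where a missing p counts as not passing. Without the filter on low counts 119 genes were called between exposed and naive cells, 55 after adjustment for culture time, 96 between control cultures, 148 between exposed cells and their control and 27 on rechallenge at 3 weeks, with more genes tested. Between control cultures DESeq2 called 109, library totals 107 (33 higher and 74 lower) and the compared groups alone 120, between exposed cells and their control the compared groups alone called 197, the 1-week reference against its control went from 437 to 676, and on rechallenge DESeq2 called 1. The cause was not tested. Leaving out 1 replicate gave 34 to 97 genes between exposed and naive cells, 1 to 7 after adjustment, 14 to 45 between control cultures, 69 to 81 and 62 to 68 for naive and exposed cells against their controls, and 0 on rechallenge. With 1 replicate left out the log2 fold changes of 3 genes that had not passed crossed 0: Psmb9 ran from -0.124 to 0.046 (0.037 without replicate 3 of the exposed cells), Tgtp1 from -0.087 to 0.226 (-0.026 without replicate 2 of the exposed cells) and Tap1 from -0.029 to 1.034. No called gene that is named changed sign. Replicate numbers did not pair the samples (correlations of deviations -0.01 to 0.12), and with a replicate block 79 genes were called between exposed and naive cells, 77 of the 78 among them, and 9 after adjustment. Depth limits the low genes, such as H2-Ab1 and Cd74, whose few counts kept them out of the test.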
